A study of Homo sapiens with 12 samples.

Results

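PGC, FAXDC2, SPSB1, HTR3A, TUBA3D, MYBPC1 and RHOU are 7 genes, of 17687 measured, that were higher after dexamethasone in the prostate cancer line LNCaPabl-Abi and that are not among the textbook glucocorticoid targets. They were chosen by the deposited levels themselves, because each lay higher on every dexamethasone array of that line than on every solvent array, and because their differences were among the largest. All 7 were found by symbol, on 8 rows of the array, since RHOU had 2 rows. Arrays measured total RNA of this line and of LNCaPabl-Enza, both epithelial human prostate cancer lines with LNCaP, a widely used established line, in their names. What Abi and Enza mean is not stated. Cells seeded in flasks received either DMSO, the solvent, or 100 nM dexamethasone, a synthetic agonist of the glucocorticoid receptor, for 24 h. The groups are called Abi_Ctrl (LNCaPabl-Abi with DMSO), Abi_Dex (LNCaPabl-Abi with dexamethasone), Enza_Ctrl and Enza_Dex (the same for LNCaPabl-Enza), with 3 arrays each. The growth medium is stated for LNCaP, with fetal calf serum, and not for the sublines. Whether replicates were separate cultures is not stated, and any p-value reflects how far these arrays spread, which may be technical.

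Dexamethasone enters the cell, binds the glucocorticoid receptor and sends it to the nucleus, where it binds DNA as a dimer at a pair of inverted repeats or together with other factors. The androgen receptor recognises closely related sites, so the target genes of the receptors overlap in prostate cells. The 7 genes have unrelated products: a digestive protease, a membrane-bound enzyme of the fatty acid hydroxylase kind, a ubiquitin ligase adaptor, a serotonin-gated ion channel subunit, an alpha-tubulin, a muscle filament protein and a small GTPase. In bulk RNA, a change in the number of expressing cells and a change in RNA per cell cannot be told apart.

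RefSeq start-region sequences on GRCh38.p14 were at hand for 5 of the 7 genes, as 6 entries, since RHOU had 2. The 250 bases before the annotated start were searched for the palindromic receptor site, AGAACA and TGTTCT with 3 bases between them, and for AGAACA or TGTTCT alone, the same repeat read on either strand, which is part of the palindrome. None of the 6 entries held the palindrome, which 0.00285% of 35116 promoters of the same length held. The single repeat was in MYBPC1 alone, at 192 to 187 bases before the start, against 12.4% of all promoters. A TATAAA box starting 40 to 20 bases before the start, searched on the gene's strand after its letters had been seen, was in PGC and MYBPC1 and in 2.3% of all promoters. These matches describe the letters in a short window and nothing beyond it. PGC and MYBPC1 are shown because they carry a box, FAXDC2 because it has neither motif, with single repeats and boxes in capitals. They lie at chr6:41747398-41747647 (minus strand), chr12:101594721-101594970 (plus strand) and chr5:154850604-154850853 (minus strand).
PGC: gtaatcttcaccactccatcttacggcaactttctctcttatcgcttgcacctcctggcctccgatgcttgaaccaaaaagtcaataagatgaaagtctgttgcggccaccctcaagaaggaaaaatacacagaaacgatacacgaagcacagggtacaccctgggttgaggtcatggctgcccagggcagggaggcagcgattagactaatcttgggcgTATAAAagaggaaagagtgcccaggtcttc
MYBPC1: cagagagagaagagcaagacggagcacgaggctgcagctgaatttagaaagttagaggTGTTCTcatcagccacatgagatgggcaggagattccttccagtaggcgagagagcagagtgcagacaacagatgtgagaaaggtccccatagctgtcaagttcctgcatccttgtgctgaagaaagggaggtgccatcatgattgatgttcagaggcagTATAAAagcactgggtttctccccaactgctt
FAXDC2: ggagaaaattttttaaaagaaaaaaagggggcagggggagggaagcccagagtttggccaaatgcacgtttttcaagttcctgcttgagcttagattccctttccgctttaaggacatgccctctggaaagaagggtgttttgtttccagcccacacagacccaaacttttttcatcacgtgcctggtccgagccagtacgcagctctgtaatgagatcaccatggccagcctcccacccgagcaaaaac

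The 3 promoters had similar base composition, with 49.6% G or C in PGC and MYBPC1 and 49.2% in FAXDC2, below the median of 58.0% over all promoters. TUBA3D had 64.0%, and the RHOU entries 65.6% and 79.6%. The 250 bases therefore divide these members into GC-poor and GC-rich starts, without a motif that all of them share among those searched.

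One array stood apart in its values over all genes, and it was already known to do so from earlier results of these data. Enza_Ctrl replicate 2 had a median Pearson r of 0.8555 with the other arrays, against 0.986 to 0.990 for each of the remaining 11, and a narrower spread of values (SD over genes 2.76 against 3.40 to 3.45 on the log2 scale). On this array HTR3A was 1.46 and MYBPC1 1.54 above the mean of Enza_Ctrl replicates 1 and 3 on the log2 scale, while FAXDC2 was 1.10 and RHOU 0.69 below it. The members' results that use Enza_Ctrl are therefore given with and without it. The array mean over 9 measured luminal prostate epithelium markers ranged from 11.08 to 12.35 over the 12 arrays, and those of basal, neuroendocrine, fibroblast, immune and endothelial lists ranged from 3.04 to 6.27. Levels of different probes are not comparable, so these ranges are no measure of cell content. The background control rows of the arrays averaged 4.496 to 4.596 on 11 arrays and 5.50 on Enza_Ctrl replicate 2.

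PGC encodes progastricsin, the zymogen of the gastric protease pepsin C, which prostate epithelium also secretes. Its deposited log2 level was 4.36, 4.40 and 4.40 in Abi_Ctrl and 9.66, 9.40 and 7.79 in Abi_Dex. In Enza_Ctrl it was 4.99, 5.19 and 4.91, and in Enza_Dex 5.44, 5.92 and 7.60. All 4 groups were apart from each other without overlap, in the order Abi_Ctrl, Enza_Ctrl, Enza_Dex, Abi_Dex. The difference in LNCaPabl-Abi, which served to choose the gene, was 4.57 ± 0.55 (SE). All 3 Abi_Ctrl values were below the mean of the background control rows on the same arrays, so the starting level is only bounded and no fold is given.

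FAXDC2 encodes a fatty acid hydroxylase domain protein of membranes. Abi_Ctrl arrays read 7.31, 7.77 and 5.75 and Abi_Dex arrays 11.16, 11.40 and 9.89 on the log2 scale. Enza_Ctrl was at 6.53, 5.27 and 6.20, and Enza_Dex at 6.98, 6.80 and 9.03. Enza_Dex overlapped Abi_Ctrl but not Enza_Ctrl, and the untreated lines overlapped each other. Replicate 3 was the lowest array within both Abi groups, with both groups still 2.12 apart at their nearest arrays. The difference in LNCaPabl-Abi was 3.87 ± 0.69 (SE), 14.7-fold on the deposited scale.

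SPSB1 encodes a SPRY domain and SOCS box protein that brings substrates, among them inducible nitric oxide synthase, to a cullin ubiquitin ligase. Its log2 level was 5.07, 5.49 and 5.01 in Abi_Ctrl and 9.21, 9.18 and 7.41 in Abi_Dex. Enza_Ctrl gave 5.14, 5.55 and 5.10, nearly the range of Abi_Ctrl, and Enza_Dex gave 6.06, 6.17 and 7.43. Enza_Dex replicate 3 lay just above Abi_Dex replicate 3, which was the single overlap between the dexamethasone groups among the 7 genes. The difference in LNCaPabl-Abi was 3.41 ± 0.49 (SE), 10.6-fold.

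HTR3A encodes the A subunit of the serotonin 5-HT3 receptor, a cation channel best known from neurons. It was at 3.95, 4.02 and 3.95 in Abi_Ctrl and at 6.53, 6.75 and 7.21 in Abi_Dex on the log2 scale. The Enza_Ctrl arrays read 4.64, 5.91 and 4.26, of which 5.91 was on the array that stood apart, and the Enza_Dex arrays 4.80, 5.27 and 6.34. The Enza groups overlapped with that array and were apart without it. In LNCaPabl-Abi the difference was 2.85 ± 0.45 (SE), again from Abi_Ctrl values below the background control rows.

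TUBA3D encodes an alpha-tubulin of microtubules that is best known from testis. Abi_Ctrl was uneven at 4.61, 4.98 and 5.93, and Abi_Dex was tight at 7.90, 7.97 and 7.96 on the log2 scale, with an SD of 0.68 against 0.04. Enza_Ctrl was at 6.80, 6.68 and 5.24 and Enza_Dex at 6.49, 6.52 and 7.11. The Enza groups overlapped with and without replicate 2, since Enza_Ctrl replicate 1 exceeded a pair of the Enza_Dex arrays. The difference in LNCaPabl-Abi was 2.77 ± 0.44 (SE), 6.83-fold. Abi_Ctrl replicate 1, at 4.61, was just above the background control rows of its array, at 4.56.

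MYBPC1 encodes the slow skeletal muscle form of myosin binding protein C, part of the thick filament. It had log2 levels of 4.13, 3.62 and 3.51 in Abi_Ctrl and 6.74, 5.55 and 7.06 in Abi_Dex. In Enza_Ctrl it was at 3.05, 4.63 and 3.13, and in Enza_Dex at 3.73, 3.40 and 5.37. Replicate 2 was the lowest array in Abi_Dex, unlike PGC, FAXDC2 and SPSB1, for which replicate 3 was. The difference in LNCaPabl-Abi was 2.70 ± 0.59 (SE), and all Abi_Ctrl and Enza_Ctrl values, and Enza_Dex replicates 1 and 2, were below the background control rows of their arrays.

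RHOU encodes an atypical small GTPase that acts on actin and cell adhesion. Its brighter row read 8.13, 8.46 and 8.27 in Abi_Ctrl and 9.89, 10.54 and 10.11 in Abi_Dex on the log2 scale. Enza_Ctrl was at 8.21, 7.31 and 7.77 and Enza_Dex at 8.18, 8.76 and 9.70, so that Enza_Dex replicate 1 fell just short of Enza_Ctrl replicate 1. The difference in LNCaPabl-Abi was 1.89 ± 0.37 (SE), 3.71-fold and the smallest of the 7. The second RHOU row, annotated to a noncoding transcript, went from 7.77, 8.04 and 8.11 to 9.50, 9.71 and 9.80 in LNCaPabl-Abi, a difference of 1.70 ± 0.51 (SE). In LNCaPabl-Enza that row differed by 1.38 ± 0.51 (SE), or by 0.65 ± 0.26 without Enza_Ctrl replicate 2, with limma adjusted p of 0.523 and 1.00.

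**Figure D1:**
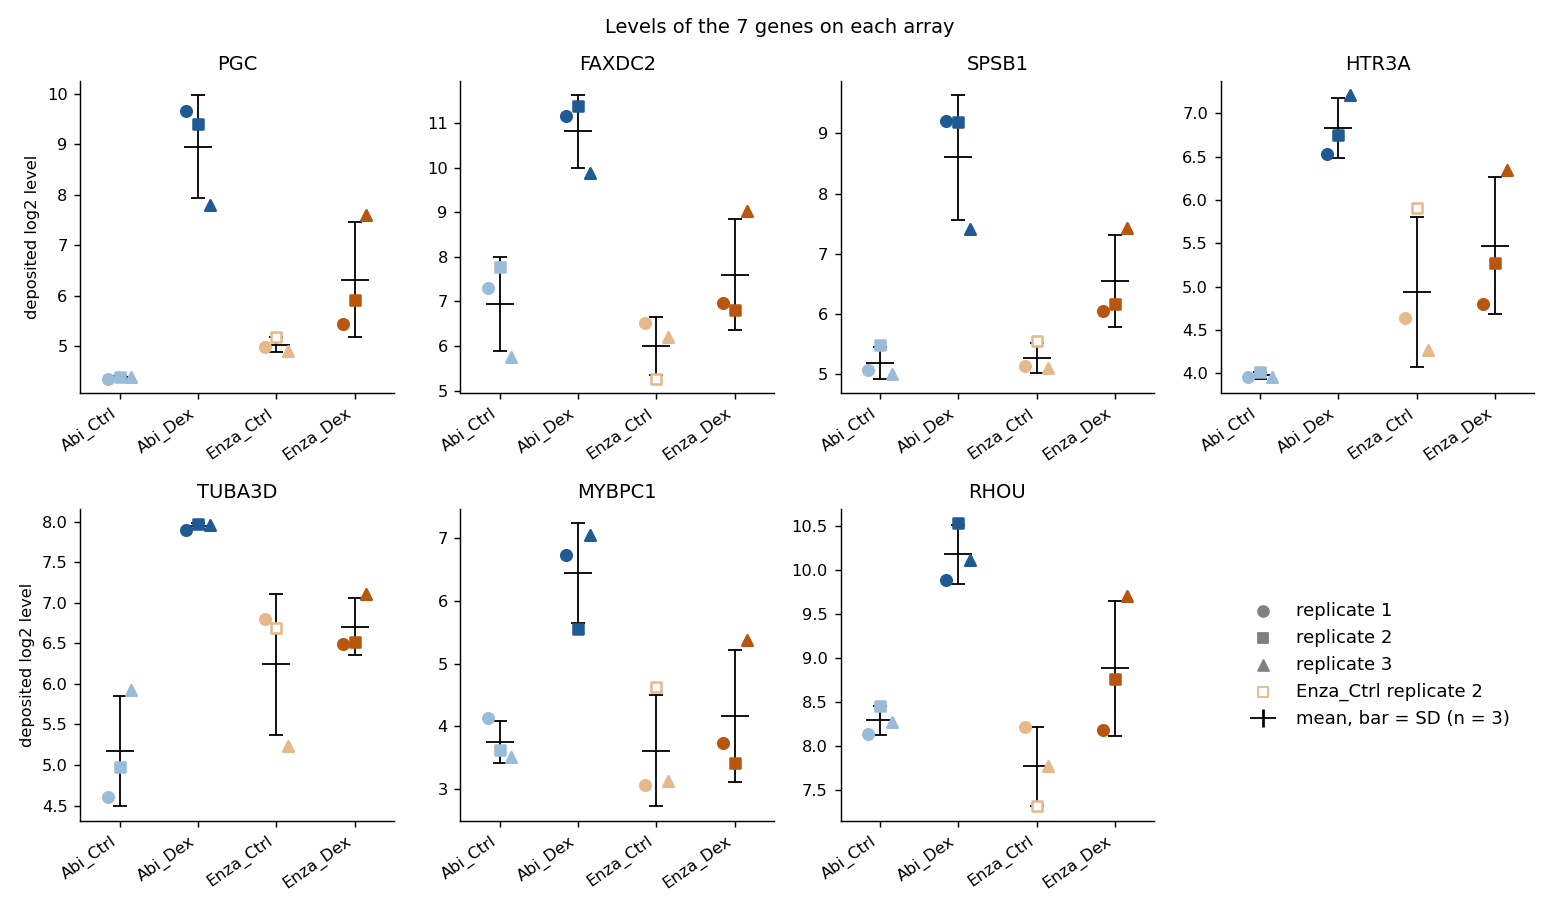
Deposited log2 level (y axis, scaled per gene) of each of the 7 genes on each array, by group (x axis), with the mean and SD of 3 arrays. Abi_Dex lies above Abi_Ctrl for all 7 by the way they were chosen, and Enza_Dex replicate 3 is the highest Enza_Dex array for all 7.

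The order that defined the choice, with the lowest Abi_Dex array above the highest Abi_Ctrl array, held for 1108 genes or 6.26% of all genes, so it alone would not single out these 7. Among the members the gap between these arrays was smallest for MYBPC1, at 1.42 on the log2 scale, and largest for PGC, at 3.38. At the edge of the order over all genes lay XKR4 with a gap of 0.000252 and FAM171A2 with -0.000165. By the size of the Abi difference the members held ranks 3 (PGC), 4 (FAXDC2), 5 (SPSB1), 7 (HTR3A), 8 (TUBA3D), 9 (MYBPC1) and 17 (RHOU) of 17687. These values chose the genes and are not a test of them.

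Does the set also move in LNCaPabl-Enza, whose arrays did not enter the choice? All 7 had a positive log2 difference there with 12 arrays, against 54% of all genes. The largest was FAXDC2 at 1.61 ± 0.69 (SE), followed by PGC at 1.29 ± 0.55, SPSB1 at 1.29 ± 0.49 and RHOU at 1.12 ± 0.37. MYBPC1 was at 0.57 ± 0.59, HTR3A at 0.53 ± 0.45 and TUBA3D at 0.47 ± 0.44. The median over the 7 was 1.12, and over all genes 0.06. By limma, 0 members and 0 of all genes (0%) were called at an adjusted p under 0.05, with adjusted p of 0.523 to 0.587 for the members. At an unadjusted p under 0.05, PGC, FAXDC2, SPSB1 and RHOU were 4 of the 7, against 1.33% of all genes in the higher direction and 700 genes in either. The SEs behind these p-values pool the spread of all groups in the fit, so the Abi arrays that chose the genes enter them. Enza_Dex lay above Enza_Ctrl without overlap for PGC, FAXDC2 and SPSB1, 3 of 7, against 3.96% of all genes.

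Without Enza_Ctrl replicate 2 the differences drew together, from 0.69 ± 0.40 (SE) for TUBA3D to 1.43 ± 0.47 for SPSB1. HTR3A moved from 0.53 to 1.02 ± 0.34 and MYBPC1 from 0.57 to 1.08 ± 0.49, and FAXDC2 from 1.61 to 1.24 ± 0.64. PGC was then at 1.37 ± 0.54 and RHOU at 0.89 ± 0.34. All 7 were again positive, against 51% of all genes. By limma, 0 members and 0 of all genes (0%) were called, with an adjusted p of 1.00 for each member and 530 genes at an unadjusted p under 0.05. At an unadjusted limma p under 0.05, 5 of the 7 were higher, against 1.38% of all genes. FAXDC2 and TUBA3D were the members short of it. The Enza groups were apart for 5 of 7, against 7.93% of all genes.

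The size of these differences set the members near the top of the LNCaPabl-Enza response once the array that stood apart was left out. A log2 difference over 1 was seen in 14 genes, 0.0792% of all, and 5 of these 14 were members: SPSB1 at rank 2, PGC at 4, FAXDC2 at 7, MYBPC1 at 10 and HTR3A at 13. RHOU was at rank 20 and TUBA3D at rank 82. With 12 arrays 4 members exceeded 1, but so did 6.41% of all genes, and their ranks ran from 134 to 4158. The kinase gene SGK1, a textbook glucocorticoid target, held rank 1 without that array at 4.43 ± 0.70 (SE).

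**Figure D2:**
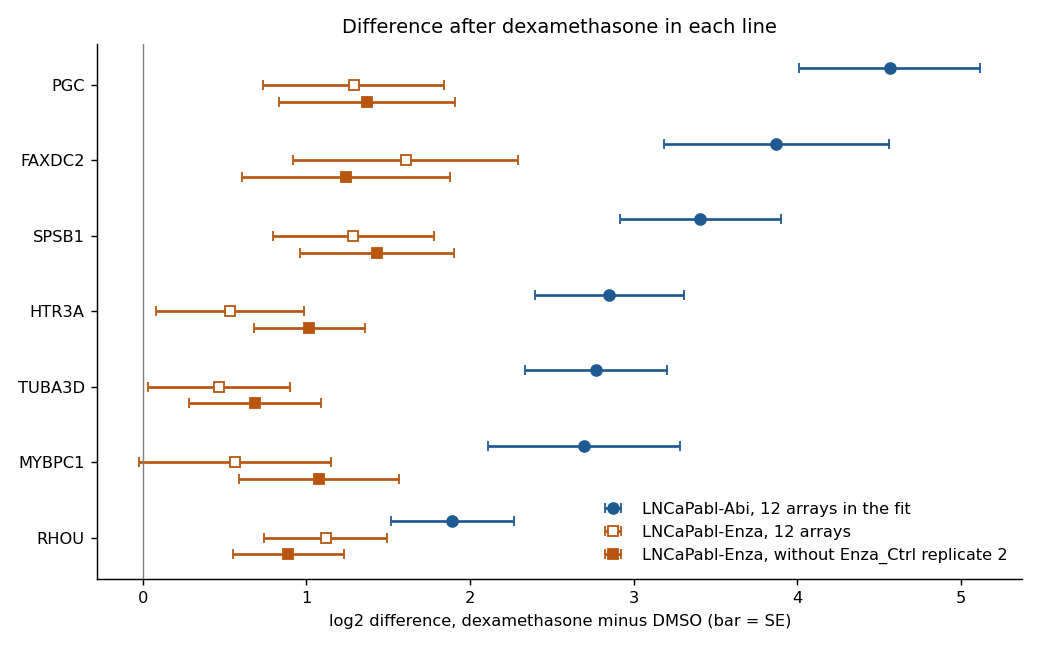
Log2 difference between dexamethasone and DMSO (x axis) for each gene (y axis), with bars of 1 SE from limma, in LNCaPabl-Abi and in LNCaPabl-Enza with and without Enza_Ctrl replicate 2. PGC stands at 4.57 in LNCaPabl-Abi against 1.29 and 1.37 in LNCaPabl-Enza, and RHOU, with 1.89 against 1.12 and 0.89, shows the smallest distance between the lines.

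The Enza values leaned on a single dexamethasone array. Enza_Dex replicate 3 was the highest of its group for all 7 members, against 36.3% of all genes. Set against the mean of Enza_Ctrl replicates 1 and 3, this array was higher by 2.67 for FAXDC2, 2.65 for PGC, 2.31 for SPSB1, 2.28 for MYBPC1, 1.89 for HTR3A, 1.71 for RHOU and 1.09 for TUBA3D on the log2 scale. All 7 were over 1 there, against 0.565% of all genes. On Enza_Dex replicate 1 the same differences ran from 0.19 for RHOU to 0.94 for SPSB1, with 0 of 7 over 1 (0.243% of all genes). On Enza_Dex replicate 2 they ran from 0.31 for MYBPC1 to 1.05 for SPSB1, with 1 of 7 over 1 (0.424% of all genes). All 7 members were above that mean on each of these arrays, where 49.7% and 49.6% of all genes were, as they were on replicate 3 (51.8% of all genes). The mean of the control arrays hides overlap with single ones. TUBA3D on Enza_Dex replicates 1 and 2, and RHOU on Enza_Dex replicate 1, were below Enza_Ctrl replicate 1. MYBPC1 on Enza_Dex replicates 1 and 2, and on both control arrays, was below the background control rows. SPSB1 was the member with the highest difference on replicates 1 and 2 and only the third on replicate 3.

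Without Enza_Ctrl replicate 2 and Enza_Dex replicate 3 together, the differences ran from 0.48 for MYBPC1 to 0.99 ± 0.45 (SE) for SPSB1, 7 of 7 positive and 0 of 7 over 1 (0.113% of all genes). Without Enza_Dex replicate 3 alone, MYBPC1 turned to -0.04 ± 0.55 and HTR3A stood at 0.10 ± 0.44. PGC was then at 0.65 ± 0.48 and FAXDC2 at 0.89 ± 0.64. At an unadjusted limma p under 0.05, 0 of 7 members were left without Enza_Dex replicate 3 alone, and 2 of 7 without both arrays. The share of all genes at that p was not counted for these sets. The ranks of the members without both arrays ran from 23 for SPSB1 to 558 for MYBPC1.

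**Figure D3:**
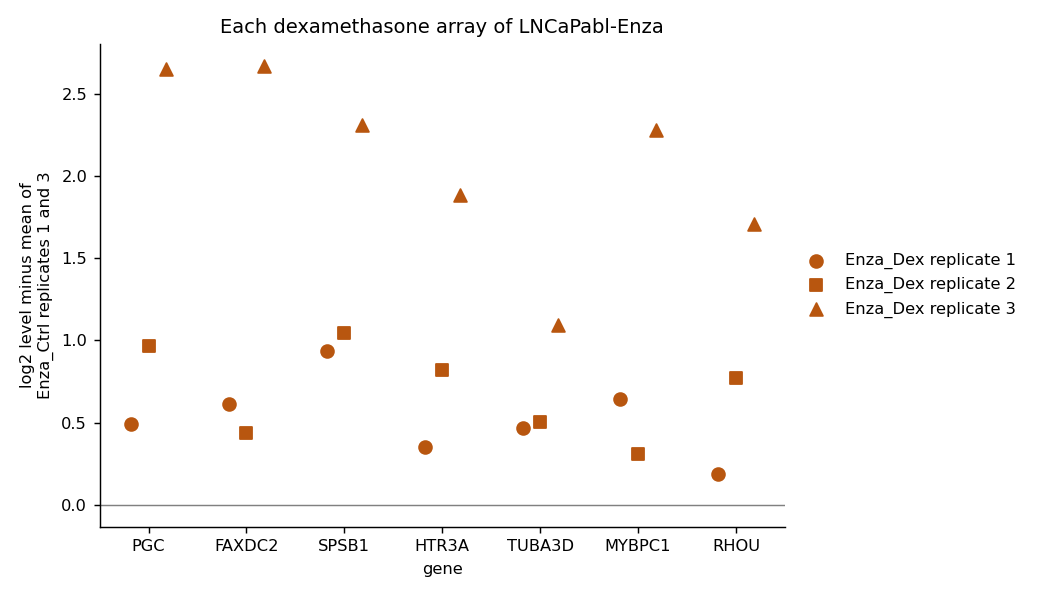
Log2 level on each Enza_Dex array minus the mean of Enza_Ctrl replicates 1 and 3 (y axis) for each gene (x axis), with a symbol per replicate. Replicate 3 stands highest for all 7 genes, from 1.09 for TUBA3D to 2.67 for FAXDC2, and no symbol lies below 0.

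NR3C1, the glucocorticoid receptor gene, also differed between these arrays. Its log2 level was 6.72 and 6.38 on Enza_Dex replicates 1 and 2 and 9.03 on replicate 3, and all 7 members and SGK1 (9.66, 9.99 and 13.20) were also highest on replicate 3. In Enza_Ctrl it was 6.51, 7.43 and 10.37, and no member was highest on replicate 3 of that group, where 4 of 7 had their lowest value. With Enza_Ctrl replicate 2 left aside, all members but MYBPC1 were lower on replicate 3 than on replicate 1. In Abi_Ctrl NR3C1 was 11.14, 11.30 and 11.49, its highest group, where all members were lower than in Abi_Dex by the choice. In Abi_Dex NR3C1 was 9.44, 9.99 and 10.16. PGC, SPSB1 and FAXDC2 were lowest on replicate 3 of that group, HTR3A, MYBPC1 and SGK1 were highest on it, and TUBA3D and RHOU were highest on replicate 2. The part of NR3C1 in the members' levels was not tested.

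**Figure D4:**
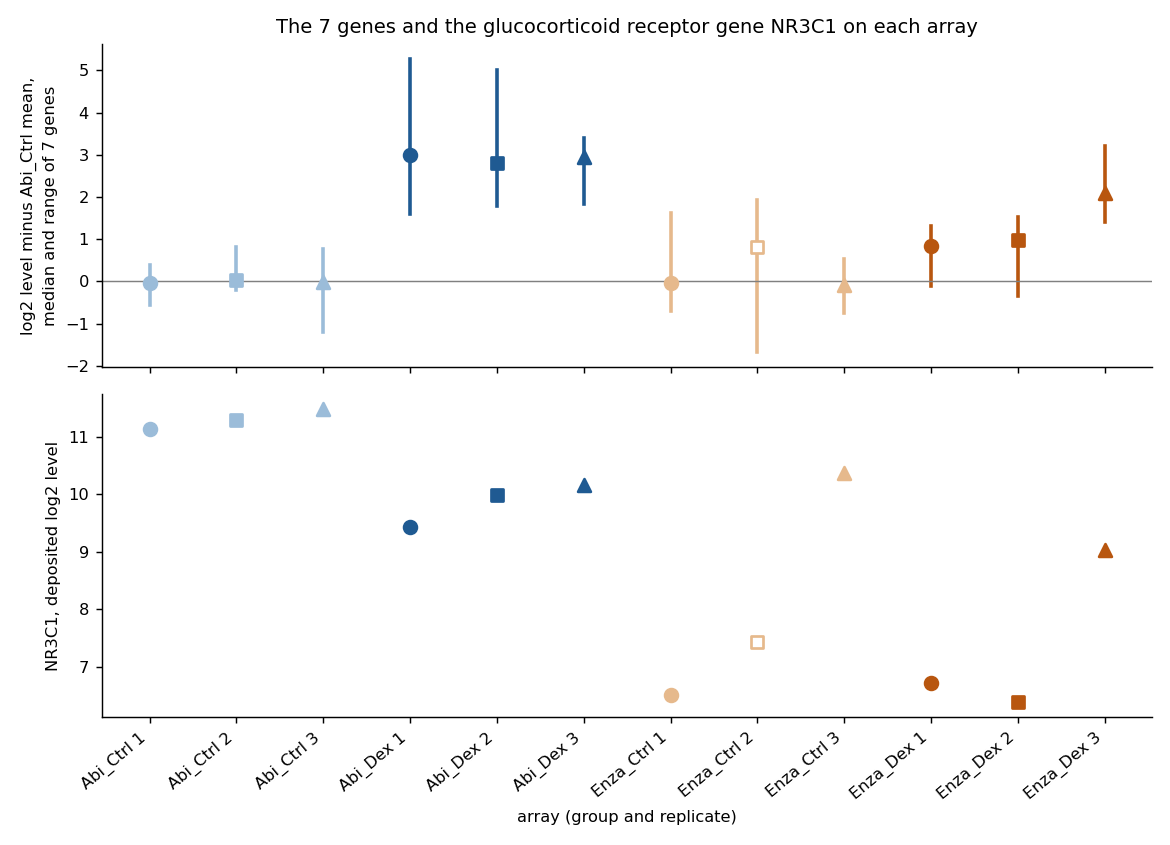
Upper panel, log2 level minus the Abi_Ctrl mean, as the median (symbol) and range (line) over the 7 genes on each array; lower panel, deposited log2 level of NR3C1 on the same arrays. The median of the 7 was 2.09 on Enza_Dex replicate 3 against 0.83 and 0.98 on replicates 1 and 2, and NR3C1 was 9.03 against 6.72 and 6.38.

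Side by side, the response was smaller in LNCaPabl-Enza for all 7 with either set of arrays, against 47.8% of all genes with 12 arrays and 49.7% without Enza_Ctrl replicate 2. The Enza minus Abi difference in response was -3.28 ± 0.78 (SE) for PGC, -2.32 ± 0.64 for HTR3A, -2.31 ± 0.62 for TUBA3D and -2.27 ± 0.97 for FAXDC2. It was -2.13 ± 0.83 for MYBPC1, -2.12 ± 0.69 for SPSB1 and -0.77 ± 0.53 for RHOU. Without Enza_Ctrl replicate 2 it was -3.20 ± 0.72 for PGC, -2.63 ± 0.85 for FAXDC2, -2.08 ± 0.54 for TUBA3D and -1.98 ± 0.63 for SPSB1. It was then -1.83 ± 0.46 for HTR3A, -1.62 ± 0.65 for MYBPC1 and -1.001 ± 0.46 for RHOU. Since the genes were chosen for large values in LNCaPabl-Abi, a smaller value in the other line is favoured by the choice, and no test is given. As a share of the Abi log2 difference, the Enza difference without replicate 2 was 24.8% for TUBA3D, 30.0% for PGC, 32.0% for FAXDC2, 35.7% for HTR3A, 39.95% for MYBPC1, 42.0% for SPSB1 and 47.1% for RHOU. With 12 arrays the shares lay further apart and in another order, at 16.8% for TUBA3D, 18.7% for HTR3A, 21.0% for MYBPC1, 28.2% for PGC, 37.8% for SPSB1, 41.5% for FAXDC2 and 59.1% for RHOU. For PGC, HTR3A and MYBPC1 the Abi_Ctrl values lay below the background control rows. Their shares, and their places in either order, therefore rest on starting levels that are only bounded.

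The untreated lines differed in few members. Every Enza_Ctrl array was above every Abi_Ctrl array for PGC and HTR3A, 2 of 7, against 5.95% of all genes. The PGC means were 5.03 ± 0.15 and 4.39 ± 0.02 (SD, n = 3), and the HTR3A means 4.94 ± 0.86 and 3.97 ± 0.04 (SD, n = 3), or 4.45 ± 0.27 (SD, n = 2) for Enza_Ctrl without replicate 2. All Abi_Ctrl values of PGC and HTR3A were below the background control rows of their arrays. So were PGC on Enza_Ctrl replicate 2 and HTR3A on Enza_Ctrl replicate 3, and the size of these differences is therefore not firm. For the other 5 members the untreated lines overlapped with all arrays. Without Enza_Ctrl replicate 2, PGC and HTR3A were again above (11.5% of all genes), and MYBPC1, at levels below the background control rows, was lower in Enza_Ctrl without overlap (12.5% of all genes). After dexamethasone, every Abi_Dex array was above every Enza_Dex array for 6 of 7 members, all but SPSB1, against 10.7% of all genes. Both counts use arrays on which the genes were chosen and carry no test.

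Within Abi_Dex the members did not share one order of arrays. PGC, SPSB1 and FAXDC2 had 2 high Abi_Dex arrays and a lower replicate 3. HTR3A and MYBPC1 were highest on replicate 3, TUBA3D was level over all 3 arrays, and RHOU was highest on replicate 2. Likeness was measured over 11 arrays, without Enza_Ctrl replicate 2, as the root mean square difference of log2 values after subtracting each gene's mean. By this measure the genes nearest to PGC among all 17687 were SPSB1 (0.47), FAXDC2 (0.71) and HTR3A (0.92), all members, where the median gene was at 1.93. FAXDC2 was nearest to SPSB1 (0.65), PGC (0.71) and MYBPC1 (0.91). The members were chosen for large differences on the Abi arrays, which enter this measure. That members lie near each other is therefore favoured by the choice.

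SPSB1 was nearest to PGC (0.47), PGLYRP2 (0.64) and FAXDC2 (0.65). HTR3A was nearest to SCNN1G (0.35), a subunit of the epithelial sodium channel, TMPRSS2 (0.45), a membrane serine protease, and RHOU (0.45). TUBA3D had TMPRSS2 (0.42), SCNN1G (0.48) and HTR3A (0.48) as its nearest genes. MYBPC1 had CST1 (0.65), a secreted cystatin, HTR3A (0.66) and KLK3 (0.71), which encodes prostate-specific antigen. RHOU had MAP1B (0.31), a microtubule-associated protein gene, STK39 (0.32), a kinase gene, and LCP1 (0.33), an actin-bundling protein gene. The measure depends on the size of a difference as well as on its shape, so genes of a like Abi difference are favoured, and 14 of these 21 neighbours were also nearest with 12 arrays.

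Relatives of the members were read from lists of their families and of the tissues they are known from. Among 8 aspartic proteases of the pepsin family, 0 were called in LNCaPabl-Abi by limma with either set of arrays, and the largest difference was BACE2 at 0.50 ± 0.28 (SE). Of 15 gastric gland products, 8 had a positive and 7 a negative difference, with a median of 0.00 and TFF1, a trefoil peptide gene, farthest from 0 at -0.56 ± 0.59 (SE). Among 5 fatty acid hydroxylase relatives of FAXDC2 the largest was AGMO at -0.40 ± 0.40 (SE). The 14 SPRY and SOCS box genes and ligase subunits had a median of -0.11, with SOCS2, a brake on cytokine signalling, at 0.80 ± 0.33 (SE). The call rate over all genes in this comparison was 0.0283% with 12 arrays and 0.141% without Enza_Ctrl replicate 2, all in the higher direction.

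The lists for HTR3A, MYBPC1 and RHOU gave a like picture. Of 20 serotonin receptors and partners, 11 were positive and the largest was MAOA, a monoamine-degrading enzyme, at 0.98 ± 0.73 (SE), or ± 0.24 without Enza_Ctrl replicate 2 with a limma adjusted p of 0.251. Among 25 sarcomere genes of skeletal muscle 13 were positive with a median of 0.01, and TPM1, a tropomyosin also expressed outside muscle, was at 0.99 ± 0.32 (SE). The 3 myosin binding proteins measured beside MYBPC1 reached -0.45 ± 0.32 (SE) for MYBPH. The 6 measured RHOU partners had PTK2B, a kinase gene, at 0.58 ± 0.27 (SE). By limma 0 genes of these lists were called in either direction in LNCaPabl-Abi, with 241 genes of all at an unadjusted p under 0.05 with 12 arrays and 1254 without Enza_Ctrl replicate 2. 

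In LNCaPabl-Enza, too, 0 genes of these family lists were called by limma with either set of arrays. With 12 arrays the median was below 0 for gastric gland products (-0.37), serotonin receptors and partners (-0.33) and sarcomere genes (-0.28), and it was -0.03, 0.04 and 0.05 for the same lists without Enza_Ctrl replicate 2. The largest difference per list without that array was MYL3, a myosin light chain gene, at 0.66 ± 0.21 (SE) among sarcomere genes, HTR1D at 0.46 ± 0.29 among serotonin genes and PGA5, a pepsinogen gene, at 0.43 ± 0.26 among aspartic proteases. MYBPHL was at -0.69 ± 0.21 (SE) there. Each of these had a limma adjusted p of 1.00. Among the 9 luminal prostate genes, TMPRSS2 was called in LNCaPabl-Abi, at 2.19 ± 0.27 (SE) with a limma adjusted p of 0.0167.

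The tubulins allowed a closer look, because TUBA3D has near relatives on the array. TUBA3C was at 7.56, 6.97 and 6.43 in Abi_Ctrl and 7.24, 7.49 and 7.02 in Abi_Dex on the log2 scale, a difference of 0.27 ± 0.34 (SE). TUBA3E went from 7.85, 7.26 and 7.62 to 8.31, 8.37 and 8.22, without overlap, a difference of 0.72 ± 0.33 (SE) with a limma adjusted p of 1.00, or 0.481 without Enza_Ctrl replicate 2. TUBA3D differed by 2.77 over the same arrays. In LNCaPabl-Enza TUBA3E was at -0.21 ± 0.33 (SE) with 12 arrays and at 0.19 ± 0.24 without Enza_Ctrl replicate 2, so its sign turned, and TUBA3C was at 0.75 ± 0.34 and 0.45 ± 0.28. In LNCaPabl-Abi the 8 alpha-tubulins measured beside TUBA3D had a median difference of 0.01, and 14 beta-tubulin, gamma-tubulin and tubulin chaperone genes a median of -0.03. In LNCaPabl-Enza the medians were 0.22 and 0.12 with 12 arrays, and 0.07 and 0.02 without Enza_Ctrl replicate 2. These genes are paralogs of high sequence similarity, and how far their probes tell them apart was not tested.

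The region before the TUBA3D start is shown with that of TUBA3E because the pair is nearly the same in sequence and differed in size of response. They lie at chr2:131475869-131476118 (plus strand) and chr2:130198440-130198689 (minus strand) of GRCh38.p14, and no motif of those searched gave capitals. A global alignment counted 234 identical bases, 14 mismatches and 4 gap positions, 92.9% identity, against 70.0% between TUBA3D and TUBA3C.
TUBA3D: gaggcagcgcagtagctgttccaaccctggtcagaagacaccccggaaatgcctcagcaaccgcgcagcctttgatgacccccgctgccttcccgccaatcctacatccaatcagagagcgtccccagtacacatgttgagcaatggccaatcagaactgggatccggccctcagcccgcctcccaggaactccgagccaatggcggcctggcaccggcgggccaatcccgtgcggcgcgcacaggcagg
TUBA3E: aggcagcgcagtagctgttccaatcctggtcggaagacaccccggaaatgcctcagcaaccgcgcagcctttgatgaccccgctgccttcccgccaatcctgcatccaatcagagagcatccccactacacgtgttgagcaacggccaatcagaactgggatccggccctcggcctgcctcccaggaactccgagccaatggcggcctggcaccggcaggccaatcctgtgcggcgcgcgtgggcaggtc

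**Figure D5:**
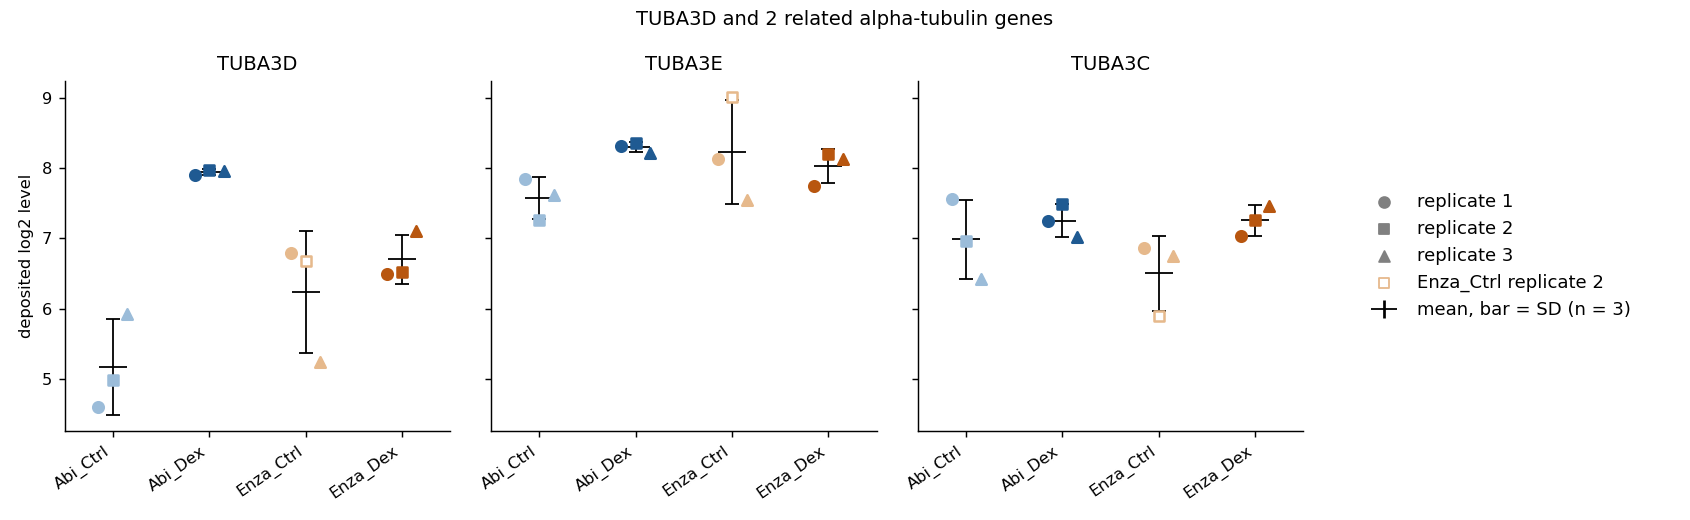
Deposited log2 level (y axis, shared) of TUBA3D, TUBA3E and TUBA3C on each array by group (x axis), with the mean and SD of 3 arrays. TUBA3D differs by 2.77 between Abi_Dex and Abi_Ctrl, TUBA3E by 0.72 and TUBA3C by 0.27, and levels of different genes are not comparable on this scale.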

How the data were processed

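Single-colour Affymetrix arrays (12) were labelled from 150 ng total RNA with the WT PLUS kit, per the labels. What the authors deposited is 1 log2 value per transcript cluster and array. Affymetrix Expression Console, RMA and limma are the tools that the submitters' processing notes list, with versions and annotation build not given in the sources used here. Deposited values run from 1.66 to 18.63, a wide range for RMA alone, and a further scaling step, which would change the meaning of differences and folds, is not stated. Folds are 2 to the power of the difference as deposited. Of 24351 rows, 17709 had 1 symbol in the platform annotation, and the brightest row per symbol left 17687 genes. Groups came from titles. Differences, SEs and p-values are from limma 3.58.1 in R 4.3.3 (4 group means, no filter, Benjamini-Hochberg over all genes, called under 0.05). The members and lists were chosen with earlier results of these data known, and members carry no p for a contrast that includes Abi arrays. Their SEs and p-values in LNCaPabl-Enza still draw on the spread of the Abi arrays in the fit. With only the 6 Enza arrays in the fit, 0 genes were called in LNCaPabl-Enza. Named genes were the members, the 3 nearest genes of each, and called or most changed list genes. The result of 1 list is not reported here. Same-numbered arrays of a line had deviations correlated at 0.14, 0.08 and 0.30 (Abi) and 0.01, 0.00 and 0.08 (Enza). Differently numbered arrays ran from -0.20 to 0.098 (Abi) and from -0.06 to 0.06 (Enza), so replicate 3 of LNCaPabl-Abi stood out. Whether the numbers mark pairs is not stated. The main fit took no pairs, and fits with a replicate block are given below. On simulated arrays of 17687 genes, changes were planted in 200 genes. Log2 changes of 1, 2 and 4 in LNCaPabl-Enza were recovered in 14.9%, 61.2% and 87.9% of cases. Once Enza_Ctrl replicate 2 was left out, the values were 46.3%, 97% and 100%. On the deposited arrays SGK1, at 4.43 ± 0.70 (SE) without Enza_Ctrl replicate 2, was not called with either set. How closely the spread of the simulated arrays follows that of the deposited arrays was not tested. Planting changes in 200 genes also eases the Benjamini-Hochberg cut. The recovery therefore does not carry over to the deposited arrays. The number of arrays limits the precision. Start regions were read from RefSeq (GRCh38.p14), aligned with Biopython 1.88.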

Additional observations from a re-analysis of the deposited data

How the results depend on the processing

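In LNCaPabl-Enza all 7 members had a positive difference with the array weights, replicate block, quantile, dim-gene, row, prior and line-only settings, and none was called under any of the 22 alternatives. Leaving out single arrays gave 0 to 1 genes called, with the 1 gene, SGK1, found without Enza_Dex replicate 3, and again 1 without that array and Enza_Ctrl replicate 2 together, an alternative chosen after seeing the data. The sign turned for TUBA3D without Enza_Ctrl replicate 3 (-0.0342) and for MYBPC1 without Enza_Dex replicate 3 (-0.0358). Leaving out single arrays gave -0.0342 to 0.7453 for TUBA3D and -0.0358 to 1.0774 for MYBPC1. With the replicate block the member values were the same, PGC at 1.29 ± 0.61 (SE), and 0 genes were called, so the block changed no call there.

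In LNCaPabl-Abi 5 genes were called (among them SGK1, SCNN1G, KLK4 and TMPRSS2, which are no members), 0 to 25 when single arrays were left out (0 without Abi_Ctrl replicate 2, 25 without Enza_Ctrl replicate 2). The count was 39 with the replicate block and without Enza_Ctrl replicate 2, 37 with array weights, 22 with only Abi arrays in the fit, and 29 without Enza_Ctrl replicate 2 and Enza_Dex replicate 3. With the block and 12 arrays it was 4. Leaving out Enza arrays changed no difference in LNCaPabl-Abi, only the SEs, which draw on the spread of all groups in the fit. Without Enza_Ctrl replicate 2 the TMPRSS2 difference stayed at 2.19, and its SE went from 0.27 to 0.20. The cause of the changed counts was not tested. Member differences in LNCaPabl-Abi stayed positive, from 1.71 for RHOU to 5.15 for PGC. No call of signal over background was made here. The background control rows served only as a comparison for dim levels, which carry no detection limit.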
